A study of Mus musculus with 3 samples.

Results

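Among 12275 barcodes of mononuclear cells from mouse costal diaphragm, 53 met a rule for tenocytes, the fibroblasts of tendon. A barcode was counted as a tenocyte when it held at least 10 unique molecular identifiers (UMIs, each marking 1 captured transcript) of *Fmod* and *Comp* together, at least 2 of *Scx*, *Mkx* and *Tnmd* together, and none of *Ptprc*, *Pecam1* or *Pax7*, which mark leukocytes, endothelial cells and muscle stem cells (MuSCs). These UMI counts chose the cells and are given below as a description without a test. WT CD held 13 tenocytes among 4132 barcodes, WT HFD 31 among 3774 and KO HFD 9 among 4369. WT denotes C57Bl/6J mice, and KO denotes the strain B6.129S2-Thbs1tm1Hyn/J, which lacks thrombospondin 1 in the whole body. CD is the control diet and HFD is a high-fat diet with 45% of kcal from lipid, and each was fed for 6 months to male mice. Each group was 1 10x Genomics library of the 3′ ends of transcripts, made from pooled mice. Strain and genotype therefore cannot be told apart in the KO HFD library, and no test between groups was possible. The central tendon and the rib attachments were cut away before collagenase digestion, and dead cells were then removed by sorting.

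Tenocytes build the parallel collagen fibres that carry force from muscle to bone. The transcription factors scleraxis (*Scx*) and Mohawk (*Mkx*) direct the tendon program, and tenomodulin (*Tnmd*), a membrane protein of mature tendon cells, lies downstream of scleraxis. Fibromodulin (*Fmod*) is a small leucine-rich proteoglycan that binds collagen, and cartilage oligomeric matrix protein (*Comp*) is a thrombospondin of load-bearing matrix. Fibro-adipogenic progenitors (FAPs) are the *Pdgfra*-positive stromal cells that maintain and remodel the matrix between muscle fibres, and they were the cells to which the tenocytes were compared.

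The sequences upstream of *Tnmd*, *Chad* and *Kera* are shown because scleraxis is known to bind E-boxes, the motif CANNTG, which reads the same on both strands. *Tnmd* was part of the rule, whereas *Chad*, which encodes the collagen-binding matrix protein chondroadherin, and *Kera*, which encodes the proteoglycan keratocan, were not. Each run holds the 250 bases before the annotated start of the gene, from RefSeq on build GRCm38.p6, plus strand, at chrX:133850758-133851007 for *Tnmd*, chr11:94564797-94565046 for *Chad* and chr10:97606955-97607204 for *Kera*. In the GENCODE annotation of the same build, *Tnmd* spans chrX:133850980-133865577, *Chad* chr11:94565047-94569127 and *Kera* chr10:97606879-97613692, so the GENCODE start of *Tnmd* lies within its run and that of *Kera* lies before its run. Capitals mark an E-box.
Tnmd: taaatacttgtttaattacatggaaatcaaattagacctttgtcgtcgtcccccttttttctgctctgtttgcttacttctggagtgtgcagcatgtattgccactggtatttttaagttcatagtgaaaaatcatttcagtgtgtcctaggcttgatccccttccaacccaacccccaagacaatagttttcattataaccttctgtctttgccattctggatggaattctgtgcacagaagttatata
Chad: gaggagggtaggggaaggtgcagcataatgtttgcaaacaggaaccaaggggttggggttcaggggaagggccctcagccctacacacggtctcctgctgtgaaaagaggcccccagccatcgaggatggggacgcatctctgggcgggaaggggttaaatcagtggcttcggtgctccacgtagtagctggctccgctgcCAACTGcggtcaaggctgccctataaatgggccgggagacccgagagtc
Kera: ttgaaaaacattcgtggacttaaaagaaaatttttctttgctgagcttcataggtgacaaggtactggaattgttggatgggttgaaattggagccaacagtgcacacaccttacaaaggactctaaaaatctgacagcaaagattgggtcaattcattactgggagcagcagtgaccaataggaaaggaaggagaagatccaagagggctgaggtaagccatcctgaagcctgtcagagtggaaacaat
The *Chad* window held 1 E-box, CAACTG, with its first base at -49 from the start, and neither the *Tnmd* nor the *Kera* window held one. At least 1 E-box was present in 66.2% of 32536 windows of the same length, so the match in *Chad* describes the window and nothing more. Binding was not measured.

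The depth of the libraries was close, with 34312860 UMIs in WT CD, 31967976 in WT HFD and 36478779 in KO HFD. Tenocytes contributed 98289, 282184 and 63875 of these, respectively, and ranged from 3188 to 17437 UMIs per cell with a median of 8393. The median FAP held 8720 UMIs and the median leukocyte (at least 2 *Ptprc* UMIs) held 9545. The median tenocyte was thus slightly shallower than both. Between 2 and 7 barcodes were shared by each pair of libraries, and none of them was a tenocyte. A doublet caller (Scrublet) marked 1 tenocyte, in WT CD.

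Tenocytes made up 0.315% of WT CD barcodes (exact 95% interval 0.168 to 0.537%), 0.821% of WT HFD barcodes (0.559 to 1.16%) and 0.206% of KO HFD barcodes (0.0942 to 0.391%). These intervals, like every interval given here, cover counting error only. The WT HFD interval lay above the other 2, which overlapped. Among tenocytes and FAPs combined the shares were 0.669%, 1.73% and 0.427%, in the same order. The KO HFD share turned on the threshold. When at least 5 UMIs of *Fmod* and *Comp* and 1 of the other genes were asked for, 24 WT CD, 46 WT HFD and 35 KO HFD cells met the rule. When 20 and 3 were asked for, 9, 18 and 2 did, and the WT CD and WT HFD intervals then overlapped (0.0996 to 0.413% and 0.283 to 0.753%). They also overlapped for tenocytes with no *Pdgfra* UMI (0.116 to 0.445% and 0.223 to 0.655%) and when the rule was applied after thinning to 2000 UMIs (0.0419 to 0.301% and 0.0962 to 0.438%). The WT HFD and KO HFD intervals overlapped under the looser rule (0.894 to 1.62% and 0.559 to 1.11%), with no *Pdgfra* UMI (KO HFD 0.0249 to 0.234%) and after thinning (KO HFD 0.000608 to 0.134%).

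The rule genes varied widely among the cells that met it. *Fmod* and *Comp* together ranged from 10 to 112 UMIs per cell in WT CD (median 28), from 10 to 150 in WT HFD (median 35) and from 10 to 25 in KO HFD (median 13). *Fmod* alone met the first threshold in 44 of the 53 cells and *Comp* reached 10 UMIs in 18. *Scx*, *Mkx* and *Tnmd* together had medians of 6, 11 and 7 UMIs. All 53 cells held a *Tnmd* UMI, and *Tnmd* alone met the second threshold in 51 of them. *Scx* was found in 28 cells (9 in WT CD, 16 in WT HFD, 3 in KO HFD) and *Mkx* in 20. In 17 cells *Tnmd* was the only gene of the 3. The second threshold was thus carried by *Tnmd* in nearly all cells. Summed over the tenocytes of a library, *Scx* stood at 529 per 1000000 UMIs (CPM) in WT CD, 273 in WT HFD and 329 in KO HFD, and FAPs held 0.514, 0.178 and 0.108 CPM. The KO HFD level rests on 1 cell, which held 17 of its 21 *Scx* UMIs. *Fmod* stood at 4385, 3048 and 1910 CPM, with 17.0, 15.9 and 22.5 in FAPs.

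Cells on both sides of the thresholds differed less sharply. The 10 tenocytes with 10 to 12 UMIs of *Fmod* and *Comp* included 9 with a *Pdgfra* UMI and 3 with an *Scx* UMI, and none held *Chad* or *Kera*. The 33 cells just below the threshold, with 5 to 9 UMIs, included 27 with *Pdgfra* and 1 with *Scx*, again with no *Chad* or *Kera* UMI, and 19 of them came from KO HFD. In these, *Sfrp2*, which encodes a secreted Wnt modulator of a FAP subset, stood at 1743 CPM. Only 2 tenocytes held exactly 2 UMIs of the other 3 genes. A further 56 cells passed on *Fmod* and *Comp* and held 0 or 1 of those UMIs. Their *Comp* level was 1166 CPM, *Pdgfra* was found in 41 of them, and *Scx* and *Kera* were at 0.

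Genes outside the rule bore on the name, but the gene lists were chosen with earlier results of these data known. They are thus a description and not independent evidence. Over the 53 cells, *Thbs4* was found in 52, *Chad* in 27 and *Kera* in 17. Of 16 tendon genes outside the rule, these 3 among them, 12 were higher than in FAPs (below). After each cell was thinned to 2000 UMIs, *Chad* remained in 22 of 53 tenocytes, 1 of 5759 FAPs and 0 of 1295 leukocytes. The last count allows up to 0.232% of leukocytes with a *Chad* UMI at this depth, and does not limit the share that express the gene. Against the name, *Scx* was absent from 25 of the 53 cells, and *Tppp3*, a gene of tendon sheath cells, was lower than in FAPs. The FAP genes *Pdgfra* and *Sfrp2* were found in 24 and 32 of the 53, and in 19 and 23 of the 25 cells without *Scx*. Those 25 cells are called tenocytes by the rule. The markers of cell types other than FAPs were scarce. Of 444348 tenocyte UMIs, the 7 macrophage markers gave 4, of which 3 were *Cd68*. The B cell, T and NK cell, adipocyte and erythroid markers gave 0. The endothelial markers gave 24 (12 *Kdr*, 11 *Flt1*, with *Pecam1* at 0 by the rule) and reached 20.4 CPM in WT CD, 53.2 in WT HFD and 110 in KO HFD. FAPs held 20.2, 19.1 and 20.8 CPM of them, and *Flt1* was called higher in tenocytes than in FAPs. In FAPs with both an *Fmod* and an *Sfrp2* UMI these markers stood at 112, 125 and 170 CPM. Of 71 UMIs of MuSC markers, 67 were *Chodl*, and the defining gene *Pax7* was at 0 by the rule. The myofiber and mural markers gave 12 each, the Schwann cell markers 4, the perineurial markers 3, and the mesothelial and cycling markers 1 each.

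The tenocytes differed in profile with the detection of *Scx*, a gene of the rule, though the split was not clean. Of the 28 cells with an *Scx* UMI, 22 held *Chad*, 14 held *Kera* and 5 held *Pdgfra*. Of the 25 cells without one, 5 held *Chad*, 3 held *Kera* and 19 held *Pdgfra*. Median depth was 7864.5 UMIs in the former and 8791 in the latter, and the contrast persisted at equal depth. After thinning to 2000 UMIs, *Chad* was found in 20 of 28 against 2 of 25 cells, and *Pdgfra* in 2 against 11. The subsets were set before thinning, after which *Scx* itself remained in 16 of the 28. No test between these subsets is reported, since they hold as few as 3 cells in a library.

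Of 16 tendon genes outside the rule, 12 were higher in the *Scx*-positive cells over the 3 libraries and 4 lower (*Cilp*, *Fibin*, *Cpxm2*, *Egr1*). Of 13 cartilage and fibrocartilage genes, 5 were higher and 3 lower (*Sox9*, *Hapln1*, *Cnmd*). Over all genes with enough UMIs, 885 of 2081 were higher in these cells. *Chad* stood at 1823 CPM in *Scx*-positive and 71.1 in *Scx*-negative tenocytes, *Kera* at 789 and 129, and *Cilp2*, an intermediate-layer protein of cartilage, at 283 and 22.2. The minor fibrillar collagen gene *Col11a2* stood at 141 and 4.45 CPM and tenascin C (*Tnc*), a matrix protein of loaded tissue, at 123 and 8.89. *Prg4*, which encodes the lubricant lubricin, stood at 5434 and 1862 CPM. *Scx*-positive cells thus held more transcripts of each of these genes. *Fmod*, a gene of the rule, was at 4718 and 1680 CPM, which is a description. *Cilp* and *Fibin* did not keep 1 order across the libraries. *Cilp* was at 2491 CPM in *Scx*-positive and 1848 in *Scx*-negative tenocytes of WT CD, at 2961 and 6049 in WT HFD and at 4775 and 1843 in KO HFD. *Fibin* was at 1838 and 1135 CPM in WT CD, 2269 and 3394 in WT HFD and 2812 and 1199 in KO HFD. Both were thus higher in *Scx*-negative cells in WT HFD alone.

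Of 16 FAP genes, 13 stood higher in the *Scx*-negative cells over the 3 libraries, compared with 57.5% of 2081 genes with enough UMIs, and *Pdgfrb*, *Cxcl14* and *Dpp4* stood lower. Collagen III (*Col3a1*) stood at 1691 CPM in *Scx*-positive and 4481 in *Scx*-negative tenocytes, lumican (*Lum*) at 693 and 1836, and elastin (*Eln*) at 114 and 667, though in KO HFD *Eln* was higher in *Scx*-positive cells (637 and 333 CPM). *Smoc2*, a matricellular calcium-binding protein, stood at 319 and 1325 CPM, and *Pi16*, a marker of adventitial fibroblasts, at 333 and 1005. The stem cell antigen gene *Ly6a* was at 13.7 and 182 CPM, but the *Scx*-negative cells of WT CD held 0 of its UMIs. *Sfrp2* was at 953 and 1600 CPM, but 142 of its UMIs in the *Scx*-positive cells came from a single WT HFD cell, and it was found in 9 of 28 and 23 of 25 cells. Decorin (*Dcn*), the most abundant proteoglycan transcript of both, was similar at 27396 and 25226 CPM.

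**Figure D1:**
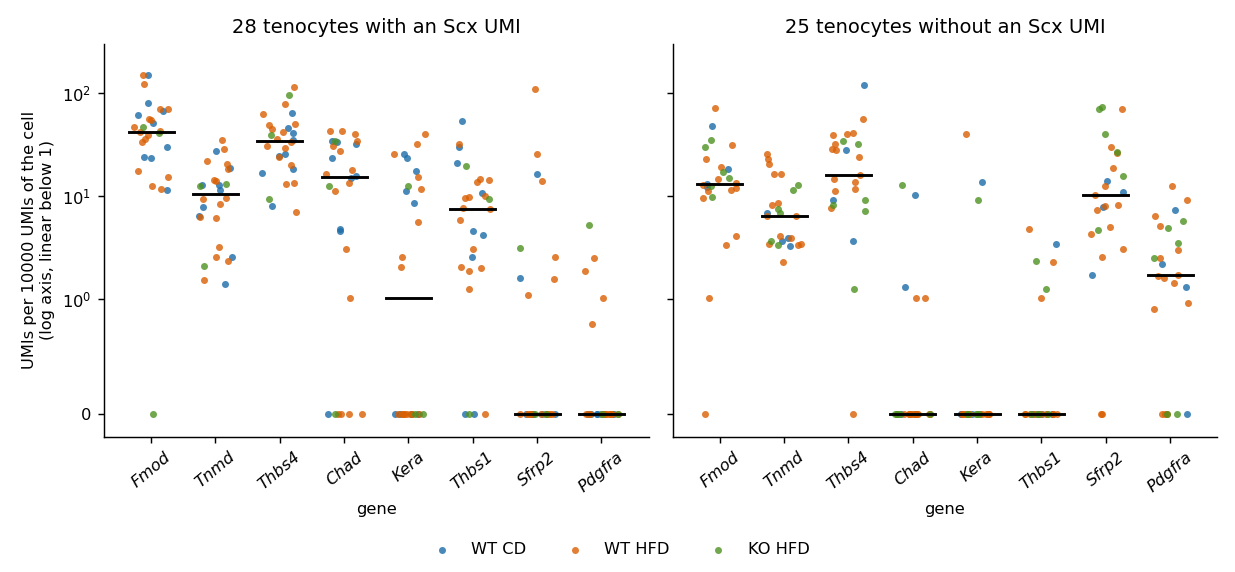
UMIs per 10000 UMIs of the cell (vertical axis, log scale, linear below 1) for 8 genes in the 28 tenocytes with an *Scx* UMI (left) and the 25 without (right). Each point is 1 cell coloured by library and each bar is the median of the cells. *Chad* and *Thbs1* lie mostly above 0 on the left and mostly at 0 on the right, *Kera* lies above 0 in 14 of 28 and 3 of 25 cells, and *Sfrp2* and *Pdgfra* show the reverse.

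*Thbs1*, the gene inactivated in the KO strain, was read in all 3 libraries. It held 4665 UMIs over all WT CD barcodes, 6459 in WT HFD and 5961 in KO HFD (136, 202 and 163 CPM). The position of the inactivating change is not given in the sources used here, and 3′ reads can persist beyond it, so the level does not check the label. In tenocytes *Thbs1* stood at 1129 CPM in WT CD (95% interval 929 to 1360, 111 UMIs), 422 in WT HFD (349 to 505, 119 UMIs) and 282 in KO HFD (167 to 445, 18 UMIs). FAPs held 197, 241 and 230 CPM. *Thbs1* was found in 8 of 13, 18 of 31 and 4 of 9 tenocytes, and 48 of the WT CD UMIs lay in 1 cell. It followed the *Scx* split, at 1071 CPM in *Scx*-positive and 57.8 in *Scx*-negative tenocytes. After thinning to 2000 UMIs it was found in 20 of 28 and 2 of 25 cells, compared with 1178 of 5759 FAPs and 135 of 1295 leukocytes.

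To define the tenocyte profile, UMIs summed over tenocytes were compared with UMIs summed over 5791 FAPs (at least 1 *Pdgfra* UMI, no *Ptprc*, *Pecam1* or *Pax7* UMI, not tenocytes) from the same 3 libraries, using edgeR's quasi-likelihood test with library as a block. Of 12074 genes tested, 231 were higher in tenocytes (1.91% of those tested) and 498 were lower (4.12%) at a Benjamini-Hochberg adjusted p below 0.05. Of these, 218 and 468 differed in the same direction in all 3 libraries. The counts were 79 higher and 318 lower without WT HFD, 149 and 273 without WT CD, and 167 and 156 with DESeq2. The median log2 difference over all genes was -0.19, and it was -0.066 when library totals replaced TMM scaling, under which 313 genes were higher and 404 lower. The genes of the rule and *Pdgfra* were given no test. Fold changes are log2 of tenocytes over FAPs from edgeR, with the SD of the 3 per-library log2 ratios and adjusted p from that test. That p rests on a spread pooled over genes, so a gene's own SD did not enter it.

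Tendon matrix genes were among those that separated the tenocytes most. *Chad* held 140, 244 and 32 UMIs in the tenocytes of WT CD, WT HFD and KO HFD (1424, 865 and 501 CPM), compared with 2 UMIs among all FAPs. *Kera* held 78, 115 and 9 UMIs (794, 408 and 141 CPM), compared with 3 among all FAPs. The FAP levels were thus near 0 in every library, and the ratio of summed levels was 24790 for *Chad* (95% counting interval 6820 to 205400) and 8025 for *Kera* (2707 to 39240). *Cilp2* stood at 234, 145 and 47.0 CPM and was higher by a log2 of 9.11 (SD 1.58, adjusted p = 1.24e-65, edgeR). *Col11a2* stood at 183, 42.5 and 31.3 CPM (8.35, SD 1.55, adjusted p = 5.53e-32, edgeR), and its partner chain *Col11a1* at 214, 156 and 110 CPM (6.28, SD 0.48, adjusted p = 5.64e-53, edgeR). All 5 genes were highest in the WT CD library and lowest in KO HFD. *Cilp2* and *Col11a2* held 12 and 10 UMIs among all FAPs. Like *Chad* and *Kera*, they entered the test through tenocyte UMIs alone, so their p-values are a description.

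The other large rises were in genes of varied roles. *Ecrg4*, a gene for a secreted precursor peptide, was even across libraries at 468, 560 and 564 CPM, with 10.1, 9.14 and 8.44 in FAPs (log2 5.68, SD 0.27, adjusted p = 1.23e-117, edgeR). *Angptl7*, an angiopoietin-like secreted protein, stood at 1282, 773 and 705 CPM, with 46.2, 35.01 and 44.6 in FAPs (log2 4.27, SD 0.40, adjusted p = 4.52e-89, edgeR), although 86 of the 126 WT CD UMIs came from 1 cell. *Ptx4*, a pentraxin, was higher by 7.18, *Chodl*, the membrane lectin chondrolectin, by 6.21, and *Egfl6*, an EGF-like matrix protein, by 5.65. *Gas2*, a cytoskeletal linker, was higher by 5.60, *C1ql3*, a C1q-like secreted protein, by 4.50, and the integrin subunit *Itga8* by 4.37. *Tnc* (4.20) and *Ccdc3* (3.70) closed the 15 largest rises among genes with at least 50 CPM on average in the higher class.

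Abundant load-bearing matrix genes differed by less. *Thbs4*, the thrombospondin of tendon and muscle attachments, stood at 3205, 3445 and 3006 CPM in tenocytes and 904, 923 and 749 in FAPs (log2 1.73, SD 0.091, adjusted p = 9.28e-26, edgeR). *Fibin* stood at 1618, 2863 and 1675 CPM (2.14), *Cilp* at 2289, 4593 and 2708 (1.31), and *Col12a1*, a collagen on the surface of fibrils, at 814, 610 and 611 (2.57). *Prg4* stood at 3652, 4065 and 1644 CPM, with 249, 384 and 289 in FAPs (log2 3.13, SD 0.69, adjusted p = 2.92e-71, edgeR). Of 16 tendon genes outside the rule, 12 rose, and *Egr1*, *Tppp3* and *Kcnk2* fell (median log2 2.74). *Chad*, *Kera*, *Cilp2* and *Col11a2*, near 0 in FAPs, entered the test through tenocyte UMIs alone. This count and median are thus partly set by the filter.

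**Figure D2:**
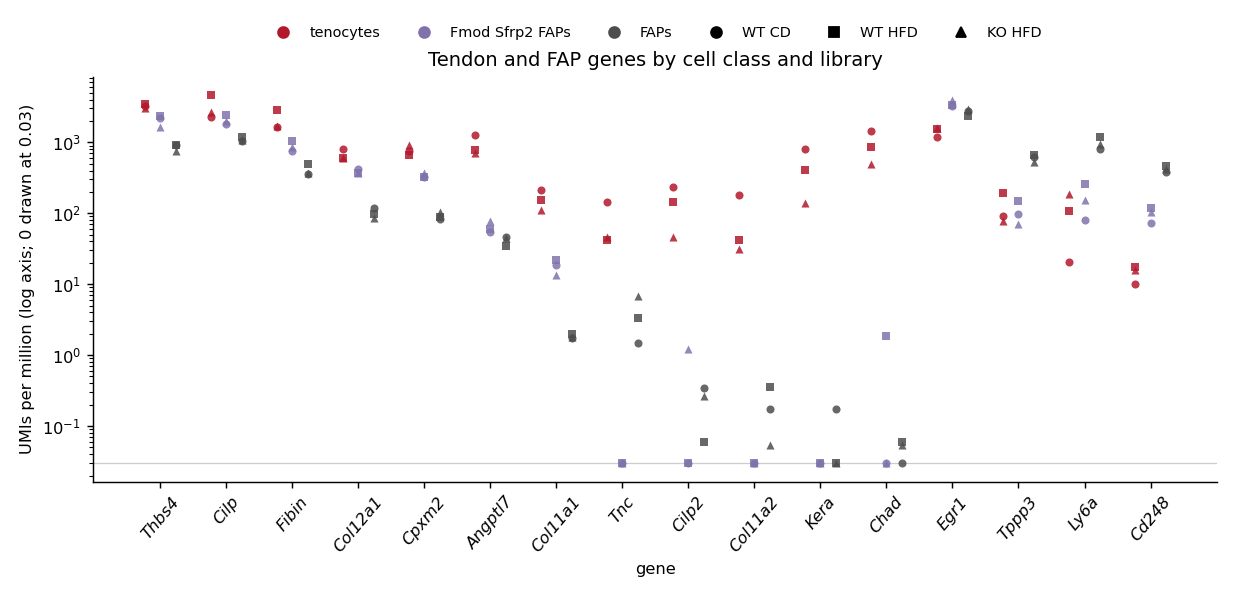
Summed UMIs per 1000000 UMIs (CPM, log axis, 0 drawn at 0.03) of 14 tendon genes and of *Ly6a* and *Cd248* in tenocytes, in FAPs with an *Fmod* and an *Sfrp2* UMI and in all *Pdgfra*-positive FAPs, 1 point per library. *Chad* and *Kera* stand between 141 and 1424 in tenocytes and at or near 0 in both FAP classes, while *Thbs4* differs by less.

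The small leucine-rich proteoglycans, which govern the width and spacing of collagen fibrils, were mostly higher in tenocytes. Of 11 tested, 7 passed in that direction (*Dcn*, *Kera*, *Prelp*, *Ogn*, *Aspn*, *Omd*, *Chad*) and *Podn* was lower, with a median log2 of 0.91. *Dcn* stood at 30075, 24190 and 29793 CPM in tenocytes and 16258, 14258 and 15727 in FAPs (log2 0.68, SD 0.084, adjusted p = 1.2e-05, edgeR), and *Prelp*, which anchors collagen to basement membrane, rose by 2.15. *Bgn* (0.15) and *Lum* (-0.35) did not pass the test. Of 9 fibrillar collagens tested, *Col1a1* (0.75), *Col11a1* and *Col11a2* were higher, *Col5a1* (-1.10) and *Col5a3* were lower, and *Col3a1* (-0.39) and *Col1a2* (0.29) did not pass (list median 0.09). Among 11 FACIT and other collagens, 2 were higher (*Col12a1*, *Col16a1*) and 3 lower (*Col4a1*, *Col6a3*, *Col15a1*), with a median of -0.50. Among 23 collagen processing and crosslinking genes, only *Lox*, the crosslinking enzyme lysyl oxidase (1.08), and the procollagen protease gene *Adamts3* (2.27) rose, *Bmp1* and *Pcolce2* fell and 19 did not pass.

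Thrombospondins, the family to which the deleted gene belongs, are matricellular proteins that bind TGF-β, collagen and cell surface receptors. Of 5 genes of the family and its receptors tested, *Thbs1* (log2 1.17, SD 1.15, adjusted p = 5.15e-07, edgeR), *Thbs2* (1.93, SD 0.37, adjusted p = 1.94e-19, edgeR) and *Thbs4* were higher in tenocytes, the receptor gene *Cd47* (-0.80) was lower and *Thbs3* (-0.32) did not pass. The *Thbs1* difference was uneven between libraries, with log2 ratios of 2.53, 0.82 and 0.33. Of 20 genes of TGF-β signalling, 5 rose (*Tgfb3*, *Ltbp2*, *Ccn2*, *Pmepa1*, *Acta2*), and *Tgfbr2*, *Ltbp1* and *Ltbp4* fell (median 0.18). *Ccn2*, a matricellular target of TGF-β and of mechanical load, stood at 1139, 1885 and 1566 CPM, with 385, 441 and 403 in FAPs (log2 1.71, SD 0.27, adjusted p = 6.96e-21, edgeR). Of 10 genes that respond to load, *Ccn2*, the stretch-gated channel gene *Piezo2* (1.37), the Hippo effector gene *Wwtr1* (0.87) and *Tnc* rose and *Egr1* (-1.07) fell. Of 5 cartilage genes tested out of 13, *Cnmd*, *Prg4* and *Chad* rose, and the chondrocyte regulator *Sox9* fell, with 4 UMIs in all tenocytes.

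**Figure D3:**
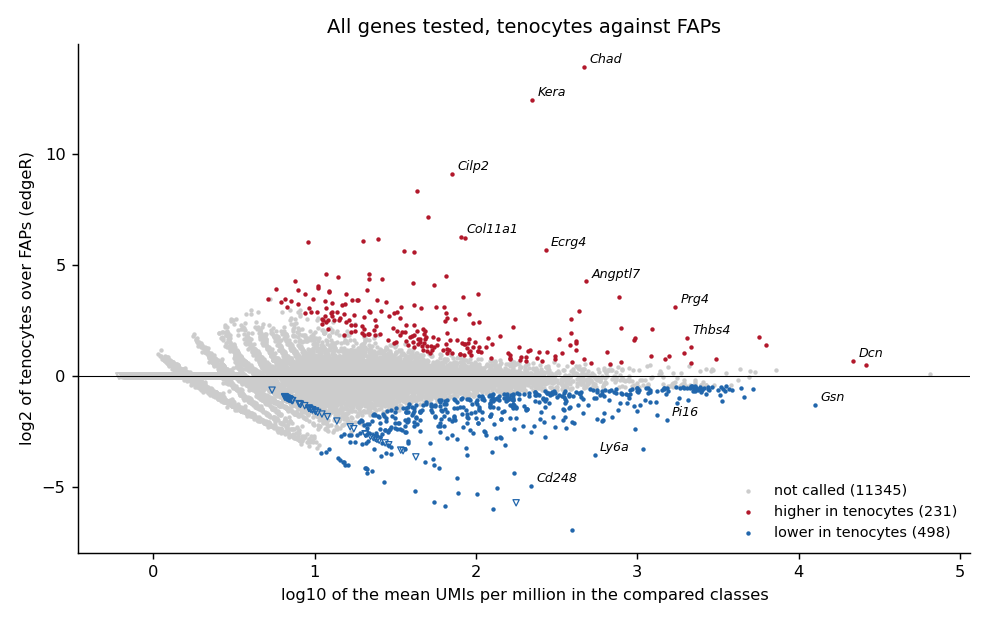
Log2 difference of tenocytes over FAPs (edgeR) against the log10 mean level in the compared classes for all 12074 genes tested. Red marks the 231 genes higher in tenocytes, blue the 498 lower and grey the remaining 11345, and open triangles mark genes with 0 tenocyte UMIs, drawn at the bound that 3 UMIs would set. *Chad* and *Kera* lie above all other genes.

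Transcripts that mark FAPs were depleted but present. Of 16 FAP genes, 12 fell, none rose and *Pdgfrb*, *Mme*, *Dpp4* and *Smoc2* did not pass (median log2 -1.95). *Cd248*, which encodes the stromal glycoprotein endosialin, stood at 10.2, 17.7 and 15.7 CPM in tenocytes and 388, 466 and 427 in FAPs (log2 -4.93, SD 0.26, adjusted p = 6e-38, edgeR). *Ly6a* stood at 20.4, 106 and 188 CPM, with 795, 1188 and 962 in FAPs (-3.54), and *Pi16* at 376, 688 and 1065, with 2252, 2459 and 2245 (-1.97). *Gsn*, the actin-severing protein gelsolin, remained abundant at 7163, 8037 and 8720 CPM (-1.29). All 12 KO HFD UMIs of *Ly6a* lay in 1 tenocyte. Of 10 matrix and FAP genes that the study named as raised by HFD in FAPs, 8 were lower in tenocytes. That list was chosen on these samples and is not independent evidence of a direction.

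The largest losses included the chemokine genes *Ccl11*, *Cxcl13*, *Ccl2* and *Ccl7*, though chemokines were not tested as a list. *Ccl11*, the eosinophil attractant eotaxin, held no UMI in any tenocyte and stood at 349, 354 and 359 CPM in FAPs, so its level was at least 52.5-fold lower (3 UMIs over the summed tenocytes as the floor). The B cell attractant *Cxcl13* and the sulfotransferase gene *Sult1e1* were also at 0, and at least 10.3-fold and 12.5-fold lower. The same held for the adhesion molecule gene *Cadm3* (at least 10.1-fold), the tubulin regulator gene *Stmn4* (8.07-fold), *Plac8* (8.56-fold) and the placental growth factor gene *Pgf* (7.42-fold). The monocyte attractants *Ccl2* and *Ccl7* held 2 and 1 UMIs in tenocytes, and FAPs exceeded them 55.7-fold (95% counting interval 15.4 to 460) and 56.7-fold (10.2 to 2240). *AW112010* held 1 UMI and was exceeded 48.5-fold (8.69 to 1914). In all, 44 of the genes called lower were at 0 in tenocytes. Of 12 inflammatory genes, 9 were lower and none higher. With genes at 0 set to their bounds the list's median was -2.30.

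Other groups differed by less. Of 14 immediate early and heat shock genes, which respond to tissue digestion, 9 were lower and none higher (median -0.64). *Fos* stood at 3500, 3090 and 2990 CPM in tenocytes, with 4012, 4031 and 4640 in FAPs. Of 12 elastic fibre genes, *Mfap4* rose (0.93), and *Fbn1* (-1.97), *Mfap5* (-1.76), *Fbln2* (-1.54) and *Efemp1* (-5.04, with 4 tenocyte UMIs) fell, while 7 did not pass (median -0.08). Of 9 fatty-acid response genes, 3 fell and none rose, and lipoprotein lipase (*Lpl*, -0.54) did not pass.

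**Figure D4:**
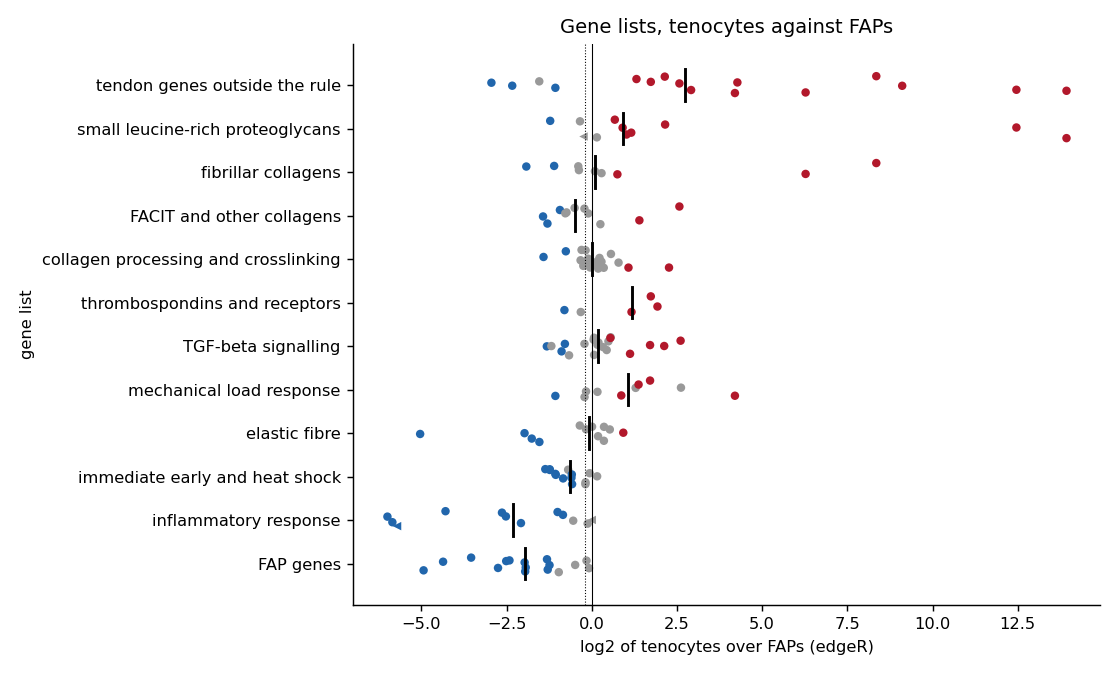
Log2 difference of tenocytes over FAPs for the tested genes of 12 lists, with each list's median as a bar. Triangles mark genes with 0 tenocyte UMIs drawn at their bound, and the dotted line is the median of all genes tested (-0.19). The tendon genes lie mostly to the right of the line, with a median of 2.74, and the FAP genes to the left, with a median of -1.95.

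To ask whether this profile also held against the FAPs most like tenocytes, the comparison was repeated with 233 FAPs that held both an *Fmod* and an *Sfrp2* UMI (67 in WT CD, 62 in WT HFD, 104 in KO HFD). Of 5244 genes tested, 71 were higher in tenocytes (1.35%) and 88 lower (1.68%) by edgeR, with a median over all genes of 0.02. The counts were 40 and 37 with DESeq2, and 72 and 183 under the stricter rule. *Sfrp2* was given no test here. The same 12 tendon genes that rose against all FAPs also rose here, out of 14 tested (median 2.22). *Kera*, *Col11a2*, *Tnc*, *Chad* and *Cilp2* held 0 or 1 UMI in these FAPs and entered the test through tenocyte UMIs alone. The count and median are thus partly set by the filter and are a description. *Kera* was at 0 in these FAPs and at least 285-fold higher in tenocytes. *Col11a2* and *Tnc* were also at 0, and at least 45.1-fold and 40.9-fold higher in tenocytes. *Chad*, *Cilp2* and *Ptx4* held 1 UMI each in these FAPs, and the tenocyte levels were 1761-fold (95% counting interval 314 to 69700), 284-fold (49.2 to 11360) and 195-fold (33.2 to 7854) higher. *Gas2* (4.57) and *Crispld1* (4.15) completed the 8 largest rises.

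The difference in *Thbs4* shrank to a log2 of 0.73 (SD 0.19, adjusted p = 0.00117, edgeR), and *Dcn* (0.18), *Ogn* (0.19), *Col1a1* (0.23) and *Thbs2* (0.15) no longer passed. *Prg4* shrank little, to 3.05 (SD 0.61, adjusted p = 1.32e-07, edgeR). *Thbs1* was higher by 2.52 (SD 1.48, adjusted p = 0.00057, edgeR), with 138, 40.5 and 184 CPM in these FAPs. Of 10 small leucine-rich proteoglycans, *Kera*, *Prelp*, *Aspn* and *Chad* rose and *Podn* fell. None of 21 collagen processing genes passed edgeR's test, and 1 of them, *Adamts3*, had an unadjusted p below 0.05. Of 15 FAP genes, 8 were lower, *Cd248* (-2.64) the most among those named, whereas *Ly6a* (-0.82) did not pass. *Sult1e1* was at least 12.5-fold lower, *Col6a5* was exceeded 24.8-fold in these FAPs (95% counting interval 6.78 to 206, 2 tenocyte UMIs), and *Lrrc17* (-2.67), the imprinted RNA *H19* (-2.43), *Lsamp* (-2.21), *Emilin2* (-2.10) and the vasopressin receptor gene *Avpr1a* (-2.03) fell. The immediate early genes *Fos* (-0.82) and *Egr1* (-1.21) were lower here too, and 6 of 14 of that list fell.

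To describe how tenocytes differed with diet, the WT HFD library was set against WT CD. With 1 library per group there was no test, and a gene was called when the ratio of levels reached 1.5, the 95% Poisson intervals did not overlap and the higher library held at least 20 UMIs. Of 2083 genes with enough UMIs, 91 were higher in WT HFD (4.37%) and 36 lower (1.73%), with a median log2 ratio of 0.18. In FAPs, 10 of the same genes were higher and 15 lower by the same rule, and of 12593 genes with enough UMIs in FAPs 1.62% were higher and 1.86% lower. FAPs hold many more UMIs, so that their intervals are narrower. These libraries differed in the share of tenocytes with an *Scx* UMI (9 of 13 in WT CD and 16 of 31 in WT HFD), so the levels in *Scx*-positive and *Scx*-negative tenocytes are given for some of the genes, and the part of this mix in each ratio was not otherwise tested.

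Of 9 elastic fibre genes with enough UMIs, 4 were higher in WT HFD tenocytes and none lower. *Eln* rose from 6 UMIs in WT CD (61.0 CPM, 95% interval 22.4 to 133) to 142 in WT HFD (503 CPM, 424 to 593), a log2 ratio of 3.04. In the *Scx*-negative cells it was 195 and 865 CPM, and in the *Scx*-positive cells 0 and 97.7. *Eln* was found in 3 of 13 and 17 of 31 cells, and its level in FAPs was 234 and 211 CPM. The microfibril genes *Fbn1* (163 and 383 CPM, log2 1.23), *Mfap5* (315 and 907, 1.52) and *Mfap4* (1302 and 1999, 0.62) were also called. *Fbn1* and *Mfap5* were higher in WT HFD within both the *Scx*-positive and the *Scx*-negative tenocytes. *Mfap4* stood at 1023 and 1924 CPM in *Scx*-positive cells and at 1913 and 2066 in *Scx*-negative cells, where the levels differed little. Of 10 FAP genes with enough UMIs, *Dpt* (295 and 790 CPM, log2 1.42) and *Pi16* (376 and 688, 0.87) were called higher and none lower, with a list median of 0.64 in tenocytes against 0.18 over all genes and 0.22 for the list in FAPs. Their part in the elastic fibre ratios was not tested. Of the list that the study drew from FAPs of these same samples, 7 members had enough UMIs. *Col3a1* (1384 and 3576 CPM, log2 1.37), *Fbn1* and *Mfap5* were called higher and none lower, with a list median of 1.23 in tenocytes and 0.49 in FAPs.

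The other genes among the 8 largest rises had varied roles. *Sfrp1*, a Wnt antagonist, stood at 50.9 CPM in WT CD and 404 in WT HFD (2.99), with 47 of the 114 WT HFD UMIs in 1 cell. *Svep1*, an adhesion protein, stood at 112 and 468 CPM (2.06), and *C1qtnf3*, a secreted C1q-like protein, at 40.7 and 266 (2.71). *S100a4*, a calcium-binding protein of fibroblasts and leukocytes, stood at 102 and 659 CPM (2.70), but 97 of 186 WT HFD UMIs lay in 1 cell. *Gadd45g* (2.18), *Clu* (2.12) and *Csrp2* (1.98) completed the 8 largest rises, and *Csrp2* changed sign under the looser rule (-0.04). The FAP ratios of *Eln*, *Sfrp1* and *C1qtnf3* were -0.15, -0.02 and -0.35. *Lox*, *Loxl1* and *Pcolce* were higher among 15 collagen processing genes, and *Lox* was not higher within the *Scx*-positive tenocytes (193 and 128 CPM).

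Genes lower in WT HFD included *Chad*, *Kera* and *Thbs1*. *Chad* stood at 1424 CPM in WT CD (1198 to 1681) and 865 in WT HFD (760 to 980), a log2 ratio of -0.72, and *Kera* at 794 and 408 (-0.96). Within *Scx*-positive cells *Chad* was 1972 and 1819 CPM and *Kera* 1038 and 744, so the *Chad* levels there differed little. In *Scx*-negative cells *Chad* was 227 and 13.4 CPM (7 and 2 UMIs) and *Kera* 259 and 107 (8 and 16 UMIs). *Thbs1* was lower by a log2 of 1.42, and stood at 1616 and 834 CPM in *Scx*-positive cells, 64.9 and 53.7 in *Scx*-negative cells and 197 and 241 in FAPs. *Apoe*, the lipid carrier, stood at 1211 and 429 CPM (-1.50), and was lower in FAPs too (448 and 257 CPM, -0.81). *Igfbp5* (-1.27) and *Myoc* (-1.07) followed. The highest WT CD cells held 33 and 27 of the 78 *Igfbp5* UMIs, and 1 WT CD cell held 36 of the 87 *Myoc* UMIs. The ratio of *Scx* was -0.96, which is a description, since *Scx* is a gene of the rule. *Postn* was called lower (509 and 117 CPM), but 49 of its 50 WT CD UMIs came from 1 cell, and without each library's highest cell the log2 ratio was 2.73. Of 12 tendon genes with enough UMIs, *Cilp* and *Fibin* were higher and *Chad*, *Kera* and *Angptl7* lower. Without each library's highest cell, which held 86 of the 126 WT CD UMIs of *Angptl7*, its log2 ratio turned from -0.73 to 0.53. *Dcn*, *Col1a1* and *Thbs4* were not called.

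To describe tenocytes of the strain that lacks thrombospondin 1, the KO HFD library was set against WT HFD, which is shared with the comparison above. The KO HFD values rest on 9 cells and 63875 UMIs. Of these cells, 4 lay just above the threshold, with 10 to 12 UMIs of *Fmod* and *Comp*, compared with 4 of 31 in WT HFD. Of 2082 genes, 28 were higher in KO HFD (1.34%) and 54 lower (2.59%), with a median log2 ratio of -0.09, and 9 of the same genes were higher and 5 lower in FAPs. Of 12629 genes with enough UMIs in FAPs, 1.08% were higher and 0.903% lower. An *Scx* UMI was found in 3 of 9 KO HFD tenocytes. Under the stricter rule for tenocytes, which left 2 KO HFD cells, 17 of these 82 calls remained. The balance of calls turned with the choice of cells, to 44 higher and 35 lower under the stricter rule, 143 and 99 under the looser rule and 42 and 29 in tenocytes with no *Pdgfra* UMI.

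Of 12 tendon genes, 4 were lower in KO HFD tenocytes (*Chad*, *Kera*, *Cilp*, *Fibin*), none was higher and 8 were not called, among them *Col12a1* (611 against 610 CPM) and *Thbs4* (3006 against 3445). For *Thbs4*, 93 of the 192 KO HFD UMIs lay in 1 cell, and the median cell held 7 UMIs against 19 in WT HFD. Of 9 small leucine-rich proteoglycans, *Bgn*, *Kera*, *Prelp*, *Aspn* and *Chad* were lower and *Lum* higher. *Kera* stood at 141 CPM (64.4 to 268) against 408 in WT HFD (337 to 489), and was found in 2 of 9 cells. *Chad* stood at 501 CPM (343 to 707) against 865, with 21 of 32 UMIs in 1 cell. In *Scx*-negative cells *Chad* was higher in KO HFD, at 156 against 13.4 CPM, on 7 and 2 UMIs. *Cilp* stood at 2708 CPM (2320 to 3143) against 4593 (4346 to 4850), a log2 ratio of -0.76, but in *Scx*-positive cells it was 4775 against 2961 and only in *Scx*-negative cells lower (1843 against 6049). *Fibin* too was 2812 against 2269 CPM in *Scx*-positive cells and lower in *Scx*-negative cells alone (1199 against 3394). *Prg4* stood at 1644 against 4065 CPM (-1.31) and was lower in both subsets (3342 against 6154 and 933 against 2200). *Comp*, a gene of the rule, stood at 282 against 1191 CPM (-2.08). Its level is tied to the choice of cells and is a description.

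Other genes lower in KO HFD rested on few UMIs. *C1qtnf3* held 2 UMIs against 75, and the WT HFD level was 8.49-fold higher (95% counting interval 2.27 to 71.4). *Hist1h2bc* and *Gadd45g* held 3 UMIs against 99 and 78 (7.47-fold, 2.48 to 36.8, and 5.89-fold, 1.94 to 29.2). *S100a4* held 6 against 186. *Tgfbi*, a TGF-β-induced matrix protein, and *Filip1l* held 2 against 51 each (5.77-fold, 1.52 to 49.0), and *Sh3bgrl3* 3 against 59 (4.45-fold, 1.45 to 22.2). In WT CD tenocytes *S100a4* and *C1qtnf3* stood at 102 and 40.7 CPM, and both ratios of each gene share the WT HFD library. Under the stricter rule, with 2 KO HFD cells, the log2 ratios of *C1qtnf3* (0.05), *Tgfbi* (0.49), *Filip1l* (0.35) and *Sh3bgrl3* (0.49) changed sign. That of *Gadd45g* did so under the looser rule (0.16), in tenocytes with no *Pdgfra* UMI (0.34) and in *Scx*-positive tenocytes (0.50).

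Genes higher in KO HFD included the FAP genes *Smoc2* and *Pi16* and the immediate early gene *Junb*. Another FAP gene, *Cxcl14*, went the other way (log2 ratio -1.23, and 0.15 without each library's highest cell). *Igfbp5*, which encodes a binding protein of insulin-like growth factors, stood at 908 CPM (690 to 1174) against 330 (266 to 404), with 37 of 58 UMIs in 1 cell. *Junb*, an immediate early gene, stood at 1941 CPM (1615 to 2315) against 801 (700 to 912), and at 2528 against 1964 in FAPs. *Ifitm3*, an interferon-induced membrane protein, stood at 2254 against 1074 CPM. *Smoc2* stood at 1581 against 758 CPM and *Pi16* was called higher as well, but under the stricter rule the log2 ratio of *Smoc2* was -2.59. *Sfrp2* stood at 2583 against 1276 CPM, but within *Scx*-positive cells at 159 against 1435, where KO HFD held 3 UMIs and 142 of the 191 WT HFD UMIs lay in 1 cell. *Abca8a*, *Cebpd* and *App* completed the 8 largest rises, and the log2 ratio of *App* was -0.15 within *Scx*-positive cells. Neither *Thbs1* (282 against 422 CPM) nor any other of 5 genes of thrombospondins and their receptors was called, and none of 9 elastic fibre genes was.

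**Figure D5:**
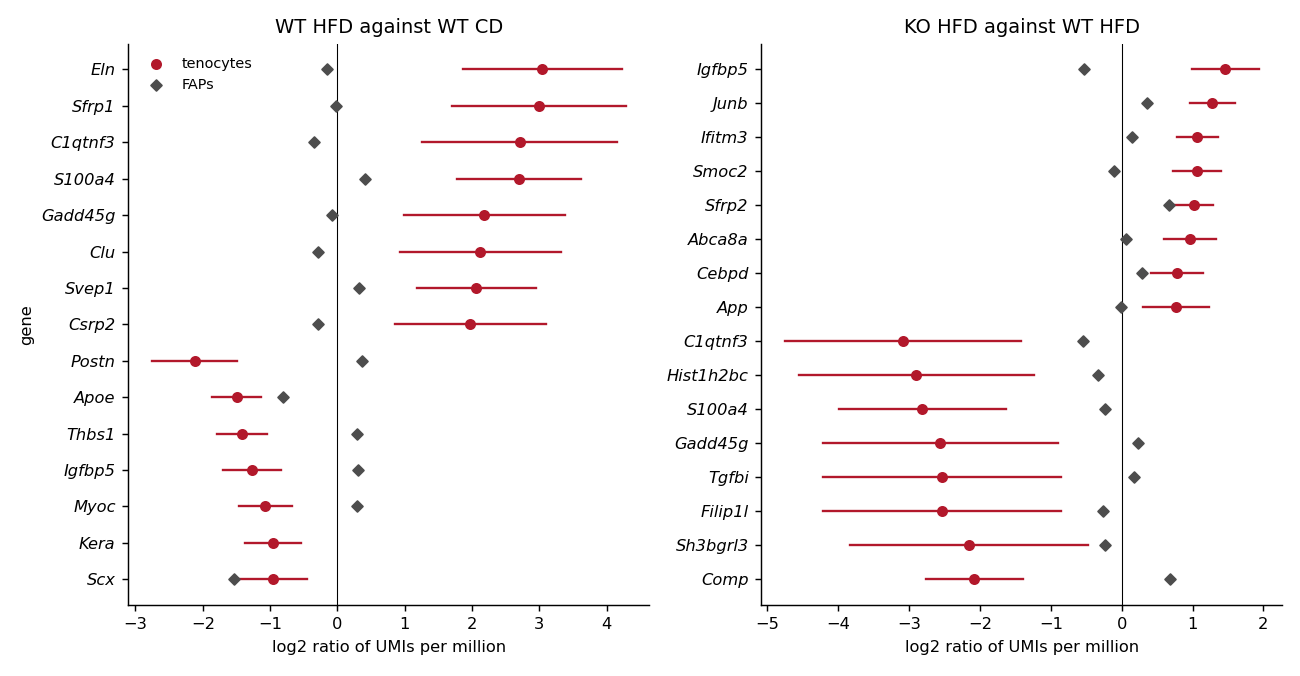
Log2 ratio of levels in tenocytes (red, with an approximate 95% counting interval) and FAPs (grey diamonds) for the named genes of WT HFD against WT CD (left) and KO HFD against WT HFD (right). Diamonds are left out where FAPs held almost no UMIs. *Eln* is at 3.04 in tenocytes and -0.15 in FAPs on the left, and *C1qtnf3* at -3.09 in tenocytes on the right.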

How the data were processed

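The deposited files held raw UMI counts per gene and barcode, which the authors made with Cell Ranger (6.1.1 per the submitters' processing notes, 6.1.0 in the file headers) on mm10. All 12275 barcodes were kept. The cells and gene lists were chosen with earlier results of these data known. Counts of tenocytes and FAPs were summed per library and tested in edgeR 4.0.16 (R 4.3.3; TMM, filterByExpr with a minimum count of 10, library as block, Benjamini-Hochberg over all genes tested, threshold 0.05). Residual error is the spread between 3 libraries, each 1 pool of mice. Against FAPs edgeR pooled it over genes in full (infinite prior degrees of freedom), so a gene's own spread did not enter its p. Against *Fmod Sfrp2* FAPs it entered in part (prior degrees of freedom 12.8). DESeq2 1.42.0 was an alternative. The code was tested on simulated data.

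Libraries were compared by CPM of summed counts with exact Poisson intervals, and shares with Clopper-Pearson intervals (95%). Genes at 0 were bounded at 3 counts over the summed class. Named genes were those of the rule, the 15 largest rises and 10 largest falls against FAPs and the 8 largest each way against *Fmod Sfrp2* FAPs (called, same direction in all 3 libraries, at least 50 CPM in the higher class), the 8 largest each way per contrast of libraries (at least 50 UMIs), and leading members of each list. Ribosomal, mitochondrial and unnamed gene models were not named, and 1 gene that met this rule is not reported here. A test between *Scx*-positive and *Scx*-negative tenocytes was void, since sums held under 10 cells, and it and its alternatives are not reported. Software was Python 3.11.15, numpy 2.4.6, scipy 1.17.1, pandas 2.3.3, scanpy 1.11.5 (Scrublet, expected rate 0.06, no barcode removed) and matplotlib 3.10.9. Gene names came from the files and coordinates from RefSeq and GENCODE on GRCm38.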

Additional observations from a re-analysis of the deposited data

How the results depend on the processing

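The genes higher in tenocytes than in FAPs (231) numbered 79 to 205 when a library was left out, 46 after thinning to 2000 UMIs per cell, 140 under the stricter gate, 361 under the looser gate and 148 with *Scx*-positive tenocytes alone. The genes lower (498) numbered 273 to 364 when a library was left out, 156 with DESeq2, 203 after thinning, 262 under the stricter gate and 313 with a filter at a mean of 25 CPM. Without WT HFD, which holds most tenocytes, 79 were higher and 318 lower. Against *Fmod Sfrp2* FAPs the genes higher (71) numbered 50 to 83 when a library was left out, 40 with DESeq2 and 34 after thinning. The genes lower (88) numbered 58 to 102 when a library was left out, 37 with DESeq2, 186 with no filter, 47 after thinning, 183 under the stricter gate, 266 with tenocytes that had no *Pdgfra* UMI and 257 with *Scx*-positive tenocytes. The labels number no replicates across groups, and the block is the library from which both classes came. Without the replicate block 246 genes were higher and 476 lower than in FAPs, and 84 and 114 against *Fmod Sfrp2* FAPs. Of the 231 and 498 genes, 164 and 156 were also called by DESeq2 and none reversed. Of the 231, the sign differed for 10 under the stricter gate, 9 with no *Pdgfra* UMI, 11 with *Scx*-positive tenocytes, 5 after thinning, 4 without WT HFD and 1 each without WT CD and KO HFD, and of the 498 for 9 under the looser gate. For the named genes, the fits against FAPs kept direction and call in 365 values and lost the call in 6, and those against *Fmod Sfrp2* FAPs in 184 and 17.

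The share of tenocytes was 0.581% in WT CD, 1.22% in WT HFD and 0.801% in KO HFD under the looser gate, 0.477% in WT HFD and 0.0458% in KO HFD under the stricter gate, 0.398% and 0.0916% with no *Pdgfra* UMI, and 0.129%, 0.223% and 0.024% when the gate followed thinning. Calls of WT HFD against WT CD (127) numbered 29 after thinning, 67 with no *Pdgfra* UMI, 59 in *Scx*-positive and 74 in *Scx*-negative tenocytes. Of the 127 themselves, 83 were kept under the stricter gate, 44 under the looser gate, 38 with no *Pdgfra* UMI and 27 after thinning. Calls of KO HFD against WT HFD (82) numbered 54 at 50 UMIs or more, 21 after thinning and 242 under the looser gate. Calls higher were 71.7% of the former, 86.2% without each gene's highest cell and 56.7% with no *Pdgfra* UMI, and 34.2% of the latter, 14.7% without the highest cells, 55.7% under the stricter gate, 59.1% under the looser gate and 59.2% with no *Pdgfra* UMI. Among the named genes of each contrast, log2 ratios changed sign for *Csrp2* (looser gate, -0.041) and *Postn* (without the highest cell, 2.73) in WT HFD against WT CD. In KO HFD against WT HFD they did so under the stricter gate for *Smoc2* (-2.59), *C1qtnf3* (0.047), *Tgfbi* (0.49), *Filip1l* (0.35) and *Sh3bgrl3* (0.49), under the looser gate for *Gadd45g* (0.16), with no *Pdgfra* UMI for *Gadd45g* (0.34) and *Filip1l* (0.34), and in *Scx*-positive tenocytes for *Sfrp2* (-3.17), *App* (-0.15) and *Gadd45g* (0.50). Of the values of named genes in the alternatives, 115 of WT HFD against WT CD moved by no more than the 95% counting error, 42 by more, and 2 reversed, and for KO HFD against WT HFD the numbers were 109, 40 and 11. Outside these reversals, *Angptl7* (WT HFD against WT CD, 0.53) and *Cxcl14* (KO HFD against WT HFD, 0.15) changed sign without each library's highest cell. The 25 CPM filter and the splits by *Scx* were chosen after seeing the data. The cause of these changes was not tested.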

Other observations

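The 56 barcodes that held at least 10 *Fmod* and *Comp* UMIs but 0 or 1 UMI of *Scx*, *Mkx* and *Tnmd* numbered 15 in WT CD, 16 in WT HFD and 25 in KO HFD. *Comp* was found in 37 of them and *Fmod* in 19. *Thbs4* stood at 945 CPM (95% counting interval 870 to 1023), *Prg4* at 824 (755 to 898) and *Ly6a* at 1013 (936 to 1094), and *Chad* held 2 UMIs. The universal fibroblast gene *Pi16* stood at 1376 CPM in 46 of the 56 cells. The chondrocyte genes *Acan* and *Col2a1* were at 0.

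*Cnmd*, which encodes chondromodulin, the relative of tenomodulin, held 18 UMIs in tenocytes, all of them in *Scx*-negative cells (80.0 CPM). Its level was 50.9 CPM in WT CD, 21.3 in WT HFD and 110 in KO HFD. These levels rest on few cells, since all 7 KO HFD UMIs lay in 1 cell, 5 of the 6 WT HFD UMIs in 1 cell and the 5 WT CD UMIs in 2 cells.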
